A study of Homo sapiens with 6 samples.

Results

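The genes described here are 30 regulators of apoptosis, chosen by name from a list of BCL2 family proteins, caspases and caspase inhibitors, out of 60664 gene IDs in the deposited table. Each of the 30 matched 1 row of the table by symbol, and each passed the filter on low counts, which 16102 genes passed in all. Of the 30, 21 were classed as pro-apoptotic and 7 as anti-apoptotic, while BCL2L12 and BCL2L13, for which roles in both directions have been described, were placed in neither class. RNA was sequenced from a human colorectal cancer line, HCT-8, after it had been transfected with a control hairpin plasmid (shNC) or with a plasmid carrying a hairpin against PNISR (shPNISR), 3 libraries in each group. PNISR encodes a serine and arginine rich nuclear protein, and the series asks what it does to alternative splicing. All 6 libraries came from 1 cell line grown in the same medium, the hairpin sequence is not given in the labels, and the labels do not say that libraries of a group came from separate cultures. The p-values therefore reflect no more than how far these 6 samples spread, and that spread may be technical. Values here are reads per gene, and isoforms were not analysed here.

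In the intrinsic pathway of apoptosis, guardian proteins such as BCL2, BCL-XL (from BCL2L1) and MCL1 hold back the effectors BAX and BAK, which, like BOK, can open the outer mitochondrial membrane. BH3-only proteins, among them BIM (BCL2L11), PUMA (BBC3), NOXA (PMAIP1) and BMF, bind the guardians or activate the effectors and so tip the balance. Cytochrome c released from mitochondria assembles with APAF1 into the apoptosome, which activates caspase-9, while the extrinsic pathway runs from death receptors through FADD to caspase-8 and caspase-10. Inhibitor of apoptosis proteins and FLIP (from CFLAR) restrain caspases at these steps. Several of these genes, BCL2L1, MCL1, BCL2L11, CASP9, CASP2 and CFLAR among them, are known for splice forms of differing or opposite activity, which a count per gene adds together.

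Upstream sequence is shown for the BH3-only genes BMF and BBC3, which had the highest fold changes of the 30, and for HRK, which had the lowest. The stretches were taken from RefSeq (GRCh38.p14), lie before the outermost listed transcription start and were trimmed where a GENCODE exon begins. All lie on the minus strand and read 5′ to 3′ toward the gene, with capitals marking GC boxes (GGGCGG on either strand) and the E-box CACGTG. They cover chr15:40108893-40109129 for BMF, chr19:47232767-47232917 for BBC3 and chr12:116881442-116881691 for HRK.
BMF: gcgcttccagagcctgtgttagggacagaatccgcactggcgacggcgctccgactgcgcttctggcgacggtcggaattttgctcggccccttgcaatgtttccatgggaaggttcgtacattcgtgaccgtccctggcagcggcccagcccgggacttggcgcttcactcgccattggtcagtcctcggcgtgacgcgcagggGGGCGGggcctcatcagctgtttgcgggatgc
BBC3: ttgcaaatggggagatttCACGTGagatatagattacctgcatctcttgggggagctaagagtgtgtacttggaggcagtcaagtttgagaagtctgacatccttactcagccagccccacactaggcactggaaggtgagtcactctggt
HRK: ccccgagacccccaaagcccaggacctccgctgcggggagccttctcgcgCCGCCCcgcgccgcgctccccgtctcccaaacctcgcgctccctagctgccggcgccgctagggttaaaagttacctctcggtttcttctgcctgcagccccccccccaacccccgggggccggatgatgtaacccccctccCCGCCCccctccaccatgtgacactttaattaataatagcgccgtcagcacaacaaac

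Of the 30 genes, 26 had an entry in the RefSeq promoter table, and the full 250 bases before the outermost start were searched on both strands. A GC box lay in 17 of the 26 (65.4%), against 42.6% of all 35116 promoters in the table, which can list several starts per gene. The CCAAT box (CCAAT) lay in 12 (46.2% against 32.0%), the TATA box (TATAAA) in 1, BCL2L1 (3.85% against 10.7%), and the FOXO site (TGTTTAC) in 1, BCL2L11 (3.85% against 2.98%). The E-box lay in 2, BBC3 and BAX (7.69% against 6.34%), with 4 copies in BAX. BMF and HRK, whose fold changes were opposite in sign, both held GC boxes and were close in GC content over this window (65.2% and 66.4%), while the BBC3 window was at 49.2%. A match of letters is a description and does not show that a factor binds.

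Total counts ranged from 15049485 to 17977803 per library. PNISR itself was at 55.3, 50.2 and 62.8 CPM (read counts scaled to library size with TMM factors) in shNC 1 to 3 and at 18.5, 20.7 and 27.6 CPM in shPNISR 1 to 3, with no overlap (log2 fold change -1.33 ± 0.15 SE, two-sided edgeR quasi-likelihood test, adjusted p = 8.73e-05 after Benjamini and Hochberg). The control library shNC 2 stood apart from the other controls: on the first principal component, which took 44.8% of the variance, it was at 0.787, against -35.2 and -31.2 for shNC 1 and 3 and 16.9 to 24.6 for shPNISR. Values without it are given beside some of the results it touches, and its part in them was not tested. All 10 colorectal epithelial markers were detected, with a summed level of 4384 to 5013 CPM in shNC and 4904 to 6147 CPM in shPNISR (2 markers called higher, 1 lower). The 7 fibroblast, 6 leukocyte and 4 endothelial markers summed to at most 29, 5.58 and 1.66 CPM in any library, and COL1A2 and PTPRC were at 0 in all 6. Of these markers 1 was called, LYZ from the leukocyte list, which had 16 to 21 reads in the controls and 1 to 8 with shPNISR (log2 fold change -2.05, edgeR adjusted p = 0.0337). Which cells its few reads came from was not tested.

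No apoptosis gene of the 30 passed the test in either direction. By edgeR's quasi-likelihood test 0 of 30 were called at an adjusted p of 0.05, beside 3.14% of all tested genes, and DESeq2 and limma voom also called 0. Adjusted p over the 30 ran from 0.159 (BMF) to 0.971 (BCL2L2). At an unadjusted p under 0.05 there were 4, each higher with shPNISR (BMF, BBC3, BAD and BOK), beside 9.98% of all tested genes in that direction (17.8% in either), and 0 lower, beside 7.79%. In 5 of the 30 (16.7%) the 2 groups were fully separated, beside 21.1% of all tested genes. BAD was the 1 with shPNISR above (beside 11.5% of all tested genes), and MCL1, HRK, CASP8 and HTRA2 were the 4 with shPNISR below (beside 9.58%).

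The intervals of the fit describe the fold changes given the spread of these 6 libraries, which may be technical. Gene levels were not matched in the comparison with all tested genes. The 95% interval of the fold change lay within 1.5-fold in both directions for 25 of the 30, beside 54.6% of all tested genes, and within 2-fold for all 30, beside 82.4%. The 5 whose interval reached past 1.5-fold were BMF, BBC3, BOK, HRK and DIABLO. The intervals are those of the fit with shNC 2, and without it the fitted log2 fold changes of BMF and BBC3 were 0.73 and 0.60. Fitted values were above 0 for 14 of the 30 (46.7%), beside 47.9% of all tested genes. The median log2 fold change was -0.04 over the 30 genes, 0.02 over the 21 pro-apoptotic genes and -0.12 over the 7 anti-apoptotic genes, beside -0.01 over all tested genes. Without shNC 2 these medians were -0.06, -0.05 and -0.19, beside -0.02. With libraries adjusted for GC content and exon length (the composition-adjusted fit) the pro-apoptotic median was -0.09 and the anti-apoptotic median -0.01, so the order of the classes turned. In bulk RNA, a change in every cell and a change in a part of the cells cannot be told apart.

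**Figure D1:**
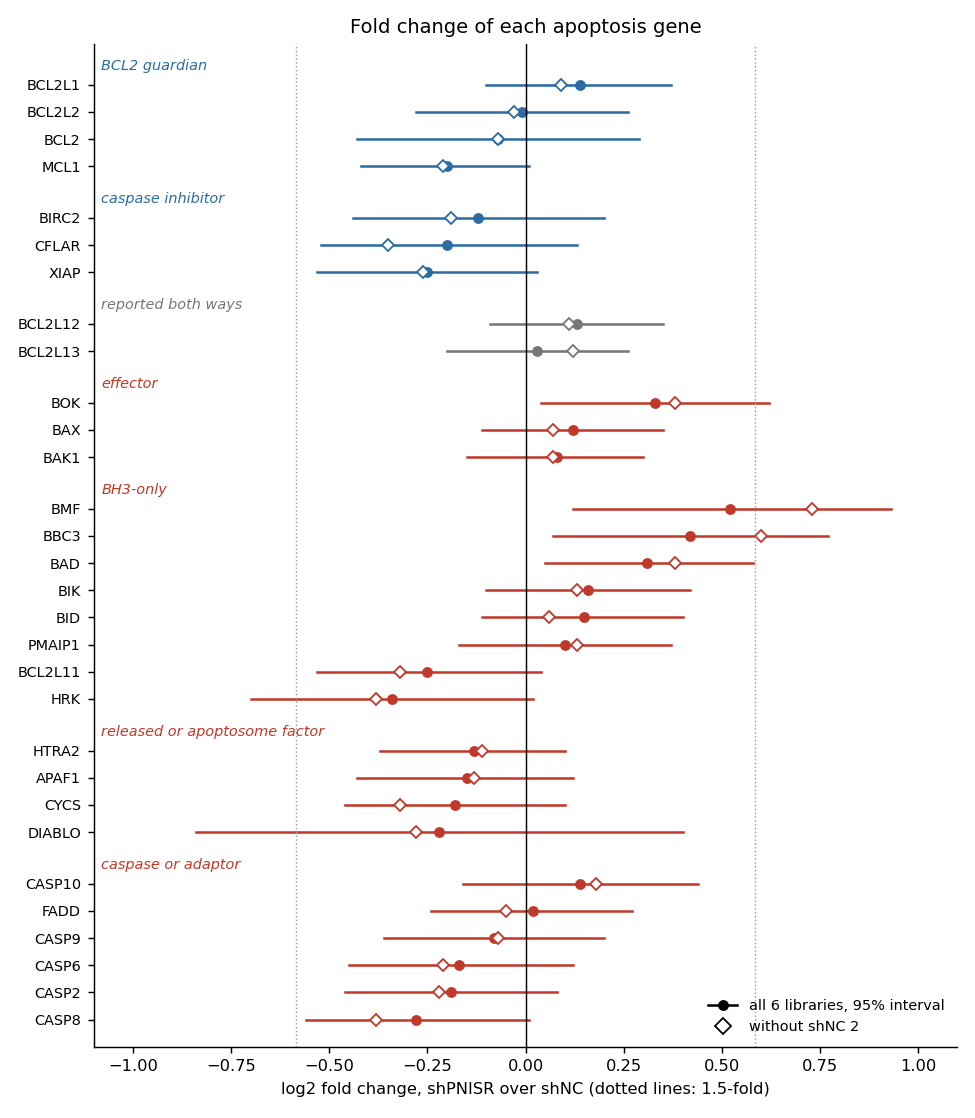
Log2 fold change of shPNISR over shNC for each of the 30 genes, by role, with the 95% interval of the fit over 6 libraries (circles and lines) and the value without shNC 2 (open diamonds). BMF is highest at 0.52 and HRK lowest at -0.34, and 25 of the 30 intervals lie between the dotted lines at 1.5-fold.

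Levels per length of exon (RPKM, the scaled CPM per kilobase of merged exons) set the genes far apart. CYCS, which encodes cytochrome c, and MCL1 were the most abundant, with means of 72.9 ± 14.3 and 72.7 ± 2.97 RPKM in shNC (SD, n = 3), and their ranges overlapped, so their order is not beyond the spread. BAX followed at 61.0 RPKM, then BCL2L12 at 43.6, BIK at 41.9 and BCL2L1 at 39.5 RPKM in shNC. BCL2, the founding member of the family, was the second lowest of the 30 at 0.787 RPKM in shNC and 0.750 RPKM in shPNISR, far below BCL2L1 and MCL1. BMF and HRK were also scarce, at 1.54 and 1.47 RPKM in shNC. DIABLO was lowest at 0.278 RPKM, with 21 to 37 reads per library. It shares 2006 and 1139 exon bases on the same strand with 2 other GENCODE gene IDs that were at 0 in every library. The ID that shares 2006 bases is also named DIABLO, and whether the DIABLO count is incomplete was not tested. CYCS has processed pseudogenes that can share reads, and the merged exons of CFLAR span 22529 bases, which lowers its RPKM.

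**Figure D2:**
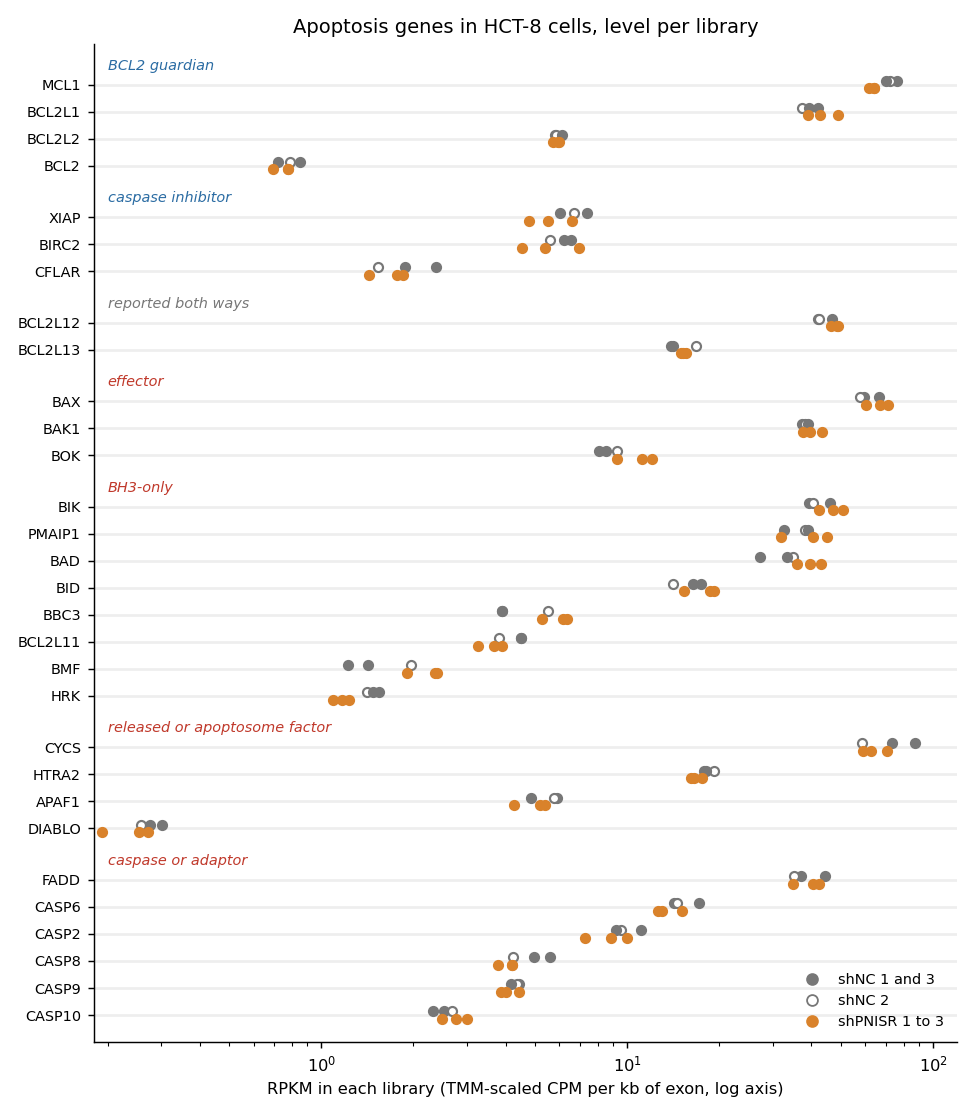
RPKM of the 30 genes in each of the 6 libraries on a log axis, grouped by role (grey filled: shNC 1 and 3; grey open: shNC 2; orange: shPNISR 1 to 3). Levels run from 0.192 RPKM for DIABLO to 87.0 RPKM for CYCS, and the groups overlap in 25 of the 30 genes.

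Among the guardians, which bind BH3-only proteins and effectors, MCL1 was the gene whose groups did not overlap. MCL1 (ENSG00000143384, minus strand of chromosome 1 at 150574551 to 150579738, GRCh38), a short-lived guardian, measured 332, 315 and 306 CPM in the 3 controls and 279, 269 and 279.8 CPM with shPNISR. Every shPNISR library lay below every shNC library, shNC 2 included. Its log2 fold change was -0.20 ± 0.10 (SE), with a 95% interval of -0.42 to 0.01 and an adjusted p = 0.316 by edgeR, so it did not pass. BCL2L1, the gene of BCL-XL, measured 139, 124 and 130.1 CPM in the 3 controls and 162, 141 and 129.6 CPM with shPNISR. Its groups overlapped, since shPNISR 3 lay inside the range of the controls (0.14, interval -0.10 to 0.37). BCL2L2, which encodes BCL-W, ran from 23.9 to 25.6 CPM over all 6 libraries (-0.01, interval -0.28 to 0.26), the narrowest range of the 4 guardians in relation to its level. It shares 813 exon bases with the readthrough gene BCL2L2-PABPN1, which had at most 6 reads in any library. BCL2 measured 9.99, 9.32 and 8.46 CPM in the 3 controls and 8.17, 9.18 and 9.14 CPM with shPNISR (-0.07, interval -0.43 to 0.29).

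The caspase inhibitors XIAP, BIRC2 and CFLAR had fitted values below 0, and none passed. XIAP, which binds and blocks caspases directly, measured 66.5, 60.5 and 54.3 CPM in the 3 controls and 49.7, 42.9 and 59.4 CPM with shPNISR. Its shPNISR 3 value lay among the controls while the other two lay below them (-0.25 ± 0.13 SE, interval -0.53 to 0.03, edgeR adjusted p = 0.33). CFLAR, whose product FLIP competes with caspase-8 at FADD, measured 53.5, 34.4 and 42.3 CPM in the 3 controls and 41.6, 32.1 and 39.9 CPM with shPNISR, so its controls spread more widely than the difference between the groups (-0.20, and -0.35 without shNC 2, edgeR adjusted p = 0.112). BIRC2, which encodes the ubiquitin ligase c-IAP1, ran from 25.2 to 29.6 CPM in shNC and from 20.5 to 31.4 CPM in shPNISR (-0.12, interval -0.44 to 0.20). In the composition-adjusted fit the fold changes of XIAP, BIRC2 and CFLAR were -0.09, -0.01 and -0.01.

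All 3 pore-forming effectors had fitted values above 0, and none passed. BOK, an effector outside the control of the main guardians, had the largest difference. BOK (ENSG00000176720, plus strand of chromosome 2 at 241551424 to 241574138) measured 22, 25.1 and 23.1 CPM in the 3 controls and 30.5, 32.6 and 25 CPM with shPNISR. The shPNISR 3 library overlapped shNC 2, and the other two shPNISR libraries were higher than all controls (0.33 ± 0.14 SE, interval 0.04 to 0.62, edgeR adjusted p = 0.222). Without shNC 2 BOK was at 0.38 (edgeR adjusted p = 0.0911). BAX measured 153, 149 and 171.5 CPM in the 3 controls and 174, 184 and 156 CPM with shPNISR, (0.12 ± 0.11 SE, interval -0.11 to 0.35, edgeR adjusted p = 0.615). BAK1 measured 82.5, 84.0 and 86.4 CPM in the 3 controls and 96.1, 87.6 and 82.8 CPM with shPNISR, with an interval of -0.15 to 0.30. Their groups overlapped, and in the composition-adjusted fit BAX was at -0.04 and BAK1 at -0.09, below 0. Of the genes classed in neither direction, BCL2L13 measured 108, 129 and 107 CPM in the 3 controls and 119.7, 117 and 115 CPM with shPNISR (0.03 ± 0.11 SE, edgeR adjusted p = 0.913). Its shPNISR libraries lay inside the range of the controls, and BCL2L12 (0.13) did not pass either. BCL2L12 shares 734 of its 2216 exon bases with IRF3 on the opposite strand, which had 1317 to 1714 reads per library. Without a stated strand setting, reads in the shared bases cannot be told apart.

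The 8 BH3-only genes spread the most, from -0.34 to 0.52, with 6 fitted values above 0 and 2 below. BMF (ENSG00000104081, minus strand of chromosome 15 at 40087890 to 40108892), whose protein senses loss of attachment and cytoskeletal stress, measured 7.73, 10.7 and 6.66 CPM in the 3 controls and 13.0, 10.4 and 12.8 CPM with shPNISR. The shNC 2 library lay above shPNISR 2, while shNC 1 and shNC 3 lay below every shPNISR library. With all 6 libraries BMF did not pass (0.52 ± 0.19 SE, interval 0.12 to 0.93, edgeR adjusted p = 0.159). Without shNC 2, its highest control, the fitted value was 0.73 ± 0.18 (SE, edgeR adjusted p = 0.0112). With the composition adjustment also added, a fit chosen after seeing the data, it was 0.64 (edgeR adjusted p = 0.0108). Leaving out the highest control raises the fold change by construction, so these p-values are no test of a rise. BBC3 (ENSG00000105327, minus strand of chromosome 19 at 47220822 to 47232766), the gene of PUMA and a target of p53, also had its highest control value in shNC 2. It measured 12.4, 17.5 and 12.4 CPM in the 3 controls and 16.8, 19.6 and 20.2 CPM with shPNISR, with shNC 2 above shPNISR 1. Its fold change was 0.42 ± 0.17 (SE, edgeR adjusted p = 0.186) with all libraries and 0.60 ± 0.15 without shNC 2 (edgeR adjusted p = 0.0144). For BBC3 too, leaving out that library raises the value by construction, so the p-value is no test of a rise. Unlike BMF, BBC3 did not pass once the composition adjustment was added to the fit without shNC 2 (edgeR adjusted p = 0.205). These 2 of 30 were the members called higher without shNC 2, beside 7.78% of all tested genes in that fit, and none was called lower, beside 4.52%.

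**Figure D3:**
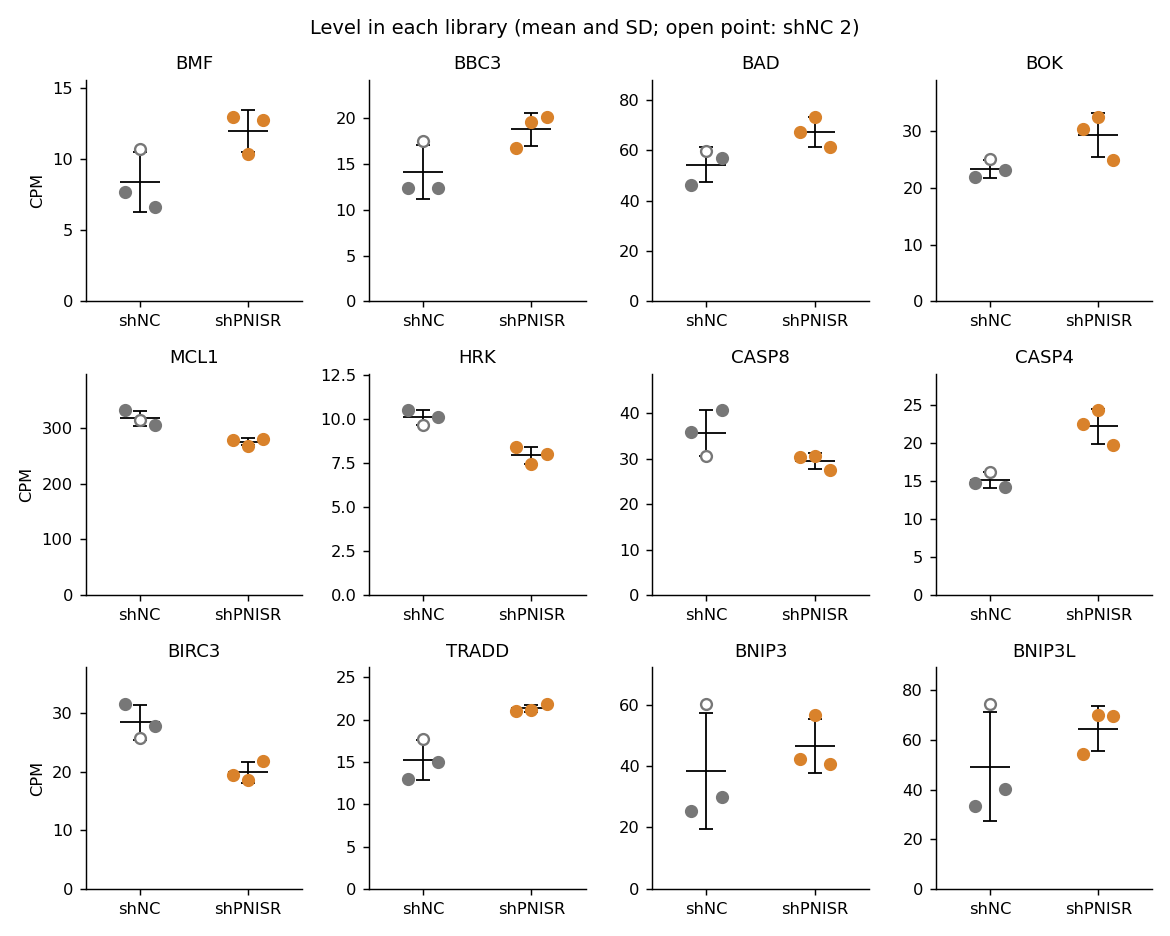
CPM in each library for 7 of the 30 genes and 5 other apoptosis genes, with the mean and SD of each group (n = 3) and axes from 0. In BMF, BBC3, BNIP3 and BNIP3L the open point, shNC 2, lies within or above the range of the shPNISR libraries, while the groups do not overlap in BAD, MCL1, HRK, CASP8, CASP4, BIRC3 and TRADD.

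BAD, a BH3-only protein switched off by survival-signal phosphorylation, was the one gene of the 30 that was higher in every shPNISR library. BAD (ENSG00000002330, minus strand of chromosome 11 at 64269830 to 64284704) measured 46.3, 59.6 and 56.9 CPM in the 3 controls and 67.4, 73.4 and 61.4 CPM with shPNISR. The gap between the groups was small, since shPNISR 3 was close to shNC 2 (0.31 ± 0.13 SE, interval 0.05 to 0.58, edgeR adjusted p = 0.194, and 0.0536 without shNC 2). BAD shares 404 exon bases with GPR137 on the opposite strand, which had 465 to 607 reads per library beside 839 to 1183 for BAD. BIK (0.16), BID (0.15), which caspase-8 cleaves to link the 2 pathways, and PMAIP1 (0.10) had overlapping groups. PMAIP1 measured 72.5, 85.1 and 87.0 CPM in the 3 controls and 71.4, 90.7 and 100.1 CPM with shPNISR, with both the lowest and the highest library in shPNISR (0.10 ± 0.13 SE, edgeR adjusted p = 0.731).

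HRK and BCL2L11 were the BH3-only genes with fitted values below 0. HRK (ENSG00000135116, minus strand of chromosome 12 at 116856144 to 116881441), known mainly from neurons, measured 10.5, 9.65 and 10.1 CPM in the 3 controls and 8.41, 7.44 and 8.03 CPM with shPNISR. Its groups did not overlap and each was tight, yet with 120 to 191 reads per library the fold change of -0.34 ± 0.17 (SE) did not pass (edgeR adjusted p = 0.308). BCL2L11, the gene of BIM, measured 30, 25.4 and 29.8 CPM in the 3 controls and 25.9, 21.6 and 24.4 CPM with shPNISR. The shNC 2 library lay just below shPNISR 1, so its groups overlapped (-0.25 ± 0.14 SE, edgeR adjusted p = 0.36). Without shNC 2 BCL2L11 was at -0.32 (edgeR adjusted p = 0.118). BCL2L11 overlaps the long noncoding gene MIR4435-2HG over 727 exon bases, which had 130 to 222 reads per library.

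Summed over each role, RPKM gave an RNA level per role, as a description without a test. Protein levels were not measured in these libraries. The 8 BH3-only genes summed to 127, 140.2 and 147 RPKM in shNC and 150.4, 165 and 152 RPKM in shPNISR, a ratio of group means of 1.13, with BIK, PMAIP1 and BAD the most abundant of them. The 4 guardians summed to 124.5, 116 and 116 RPKM in shNC and 119, 110.5 and 109.9 RPKM in shPNISR, a ratio of 0.952, and their groups overlapped. The 3 effectors summed to 108 ± 5.26 RPKM in shNC and 117 ± 8.73 RPKM in shPNISR (SD, n = 3), also overlapping. Caspase inhibitors, released and apoptosome factors, and caspases with FADD had ratios of 0.877, 0.887 and 0.956, and their groups overlapped. The BH3-only sums did not overlap. In the composition-adjusted fit the log2 fold changes of BIK, PMAIP1 and BAD were -0.00, 0.16 and 0.05, against 0.16, 0.10 and 0.31 as counted. The median over the 8 BH3-only genes was 0.09 in that fit, against 0.15 as counted. Ratios of 2 genes within a library do not depend on scaling and were also read without a test. The log2 ratio of BAX to BCL2L1 counts was 0.14, 0.27 and 0.40 in shNC and 0.10, 0.38 and 0.27 in shPNISR, and that of BAX to BCL2 was 3.94, 4.0 and 4.34 in shNC and 4.41, 4.32 and 4.10 in shPNISR. PMAIP1 was set against MCL1 because NOXA binds MCL1 selectively, and their log2 ratio was -2.19, -1.89 and -1.82 in shNC and -1.97, -1.57 and -1.48 in shPNISR. In each of the 3 ratios the groups overlapped, with differences of group means of -0.02, 0.18 and 0.29.

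**Figure D4:**
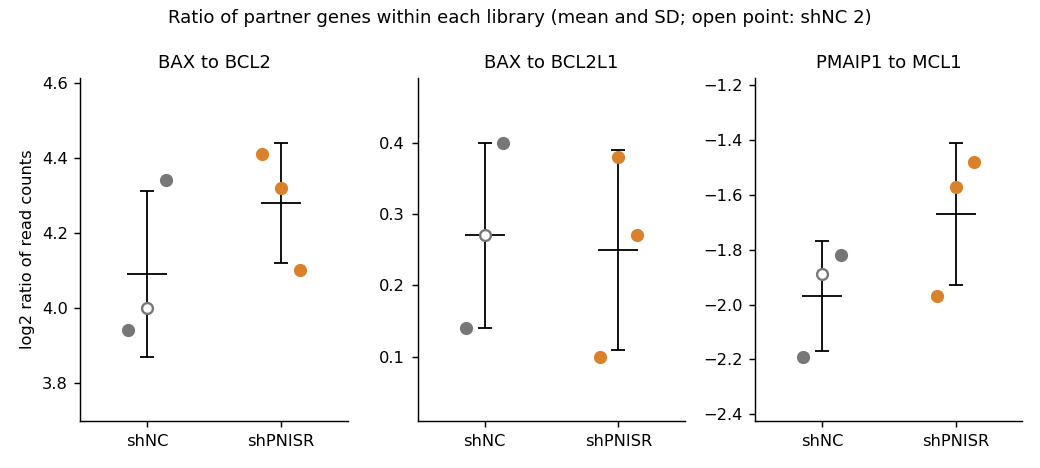
Log2 ratio of read counts of BAX to BCL2, BAX to BCL2L1 and PMAIP1 to MCL1 within each library, with group mean and SD (n = 3) and the open point for shNC 2. The groups overlap in each panel, and the largest difference of means is 0.29 for PMAIP1 to MCL1.

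The factors released from mitochondria and the apoptosome scaffold all had fitted values below 0, from -0.22 to -0.13, and none of the 4 passed. CYCS measured 326, 260.4 and 388 CPM in the 3 controls and 262, 315 and 280.1 CPM with shPNISR, so the controls alone spanned the shPNISR range (-0.18 ± 0.13 SE, edgeR adjusted p = 0.497, and -0.32 without shNC 2, adjusted p = 0.0938). HTRA2 (ENSG00000115317, plus strand of chromosome 2 at 74529377 to 74533348), a mitochondrial protease that counters inhibitor of apoptosis proteins once released, measured 53.3, 57.5 and 54.3 CPM in the 3 controls and 49.4, 52.6 and 48.4 CPM with shPNISR. Its groups did not overlap, though the difference was small (-0.13 ± 0.11 SE, edgeR adjusted p = 0.573). In the composition-adjusted fit HTRA2 was at -0.31 and did not pass (edgeR adjusted p = 0.0856). With shNC 2 also left out, a fit added after seeing the data, it was at -0.32 (edgeR adjusted p = 0.0239). That was the 1 of 17 alternatives in which it passed. HTRA2 was the single member called lower there, beside 7.39% of all tested genes, and BMF the single member called higher, beside 7.8%. HTRA2 shares exon bases with AUP1 and LOXL3 on the opposite strand, and AUP1 had 1985 to 2661 reads per library beside 789 to 966 for HTRA2. APAF1, the apoptosome scaffold, ran from 38.3 to 46.6 CPM in shNC and from 33.6 to 42.6 CPM in shPNISR (-0.15, interval -0.43 to 0.12). DIABLO, whose product SMAC displaces XIAP from caspases, had the widest interval of the 30, from -0.84 to 0.40.

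Among the caspases and their adaptor FADD, 4 of 6 fitted values were below 0, and none passed. CASP8 (ENSG00000064012, plus strand of chromosome 2 at 201233443 to 201287711), the initiator caspase of death receptors, measured 35.8, 30.6 and 40.6 CPM in the 3 controls and 30.4, 30.5 and 27.4 CPM with shPNISR. The groups came close to meeting, with shNC 2 just above shPNISR 2 (-0.28 ± 0.13 SE, interval -0.56 to 0.01, edgeR adjusted p = 0.295, and 0.0571 without shNC 2). CASP10, a close relative of CASP8, had a fitted value of the other sign, at 19.0, 20.3 and 17.5 CPM in the 3 controls and 22.8, 20.9 and 18.8 CPM with shPNISR (0.14, interval -0.16 to 0.44). CFLAR, CASP10 and CASP8 lie in a row on chromosome 2 between 201116104 and 201287711, and their fitted values were -0.20, 0.14 and -0.28, with no call among them. FADD averaged 71.3 ± 8.90 CPM in the controls and 72.1 ± 6.99 CPM with shPNISR (SD, n = 3, log2 fold change 0.02). CASP2, an initiator caspase linked to DNA damage and ploidy control, measured 88.7, 76.5 and 73.7 CPM in the 3 controls and 80.1, 58.2 and 71.1 CPM with shPNISR (-0.19 ± 0.13 SE, edgeR adjusted p = 0.465). CASP6 averaged 29.7 ± 3.16 and 26.4 ± 2.62 CPM (-0.17), and CASP9, the apoptosome caspase, 22.8 ± 0.722 and 21.6 ± 1.58 CPM (-0.08). In each of these the groups overlapped.

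Fold changes of the 30 went with both the GC content and the exon length of the genes. Over the 30, Pearson r with log2 exon length was -0.48 and Spearman rho with exon length was -0.53. Across all tested genes with both values these were -0.15 and -0.22. Across the 30 genes, which share the same 6 libraries, the log2 fold change had a Pearson r of 0.68 and a Spearman rho of 0.65 with the GC content of the longest transcript, beside 0.32 and 0.39 across the 15989 tested genes with a value. Of the 13 genes above 50% GC, 10 had a fitted value above 0, beside 64.7% of all such genes, and of the 17 at or below 50% it was 4, beside 33.1%. The GC-rich side held BBC3 (69.7% GC), BAD (66.3%) and BOK (66.0%), and the GC-poor side BIRC2 (38.0%), XIAP (39.0%), APAF1 (41.7%) and CASP8 (42.6%). Among the genes that did not follow the trend were PMAIP1, at 37.2% GC, and HTRA2, at 60.5%. The composition-adjusted fit subtracts trends with GC content and exon length together, so a fall in r is built into it. In that fit Pearson r with GC content was 0.13 over the 30, beside 0.01 across all tested genes with a value. The adjusted fold change was 0.14 for BBC3, 0.05 for BAD and 0.08 for BOK, while BMF (54.8% GC) was at 0.46, HRK at -0.33 and HTRA2 at -0.31. In that fit 0 of the 30 passed by edgeR, beside 3.2% of all tested genes (2.05% higher and 1.15% lower). Base composition, exon length and the effect of the hairpin cannot be told apart from these counts alone.

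**Figure D5:**
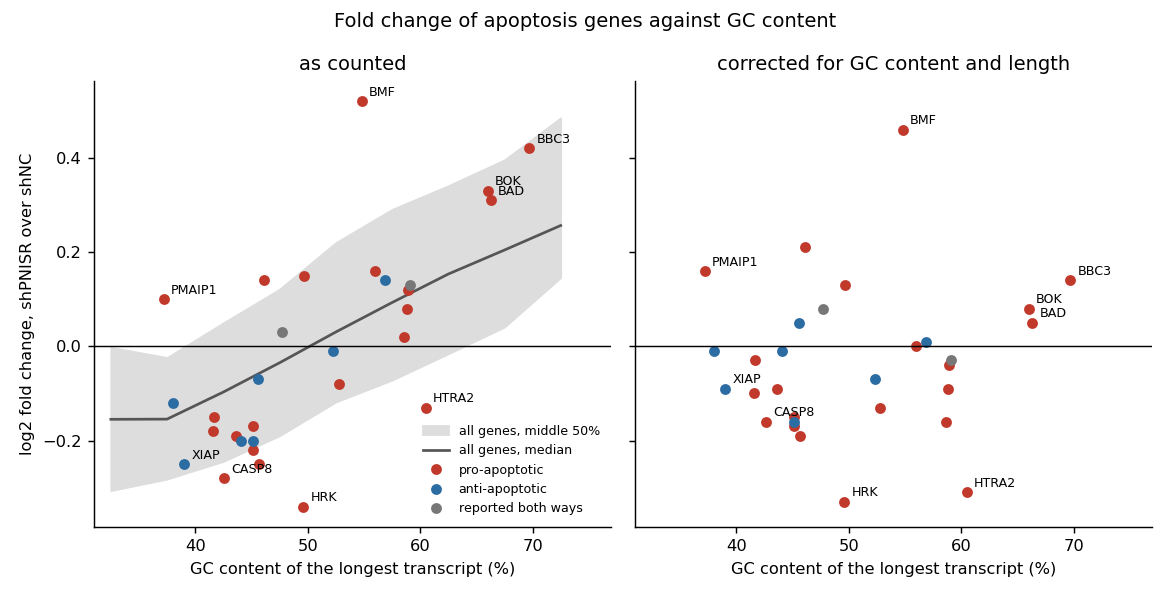
Log2 fold change of the 30 genes against the GC content of their longest transcript, as counted (left, with the median and middle 50% of all tested genes in 5-point bins of GC) and in the composition-adjusted fit (right). BBC3, BAD and BOK lie above 0.3 on the left and at 0.14 or below on the right, while BMF is at 0.52 and 0.46.

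Other genes of the pathway were read from a list of 50, of which 40 were tested. One passed: CASP4 rose, beside 2.3% of all tested genes called higher, and 0 fell, beside 0.832% (edgeR). At an unadjusted p under 0.05 there were 5 of the 40, beside 17.8% of all tested genes, of which 4 were higher (beside 9.98%) and BIRC3 lower (beside 7.79%), and DESeq2 called 1 lower (BIRC3) and limma voom 0. CASP4, an inflammatory caspase that senses bacterial lipopolysaccharide in the cytosol, measured 14.8, 16.2 and 14.2 CPM in the 3 controls and 22.5, 24.3 and 19.7 CPM with shPNISR. All 6 libraries were separated by group (0.56 ± 0.15 SE, edgeR adjusted p = 0.0437, range over alternatives 0.00119 to 0.196). Among the settings that ended the call were library totals as the scaling (0.0638) and leaving out any 1 library other than shNC 2 (0.0564 to 0.196), and in the composition-adjusted fit it was at 0.72 (0.0135).

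BIRC3, TRADD and TNFRSF10D were the next by p, and none passed with all 6 libraries. Their groups did not overlap, as in 9 of the 40 genes (22.5%, 7 higher and 2 lower), beside 21.1% of all tested genes. BIRC3, which encodes c-IAP2 and neighbours its paralog BIRC2, measured 31.5, 25.8 and 27.8 CPM in the 3 controls and 19.4, 18.5 and 21.9 CPM with shPNISR (-0.51 ± 0.14 SE, edgeR adjusted p = 0.053). DESeq2 called it lower (adjusted p = 0.0238), as did edgeR without shNC 2 (0.00899), while in the composition-adjusted fit it was at -0.32 (0.155). TRADD, an adaptor of TNF receptor signalling, measured 13.0, 17.7 and 15 CPM in the 3 controls and 21.0, 21.1 and 21.8 CPM with shPNISR (0.48 ± 0.15 SE, edgeR adjusted p = 0.0891), and in the composition-adjusted fit it was at 0.25 (0.27). TNFRSF10D, a decoy receptor for the death ligand TRAIL, measured 33.7, 30.9 and 29.8 CPM in the 3 controls and 42.0, 42.2 and 38.5 CPM with shPNISR (0.38 ± 0.12 SE, edgeR adjusted p = 0.0994). All 3 shPNISR values lay above the controls. In the composition-adjusted fit TNFRSF10D was at 0.38 (edgeR adjusted p = 0.0538), and with shNC 2 also left out at 0.37 (edgeR adjusted p = 0.0194). VDAC1, a channel of the outer mitochondrial membrane, measured 419.8, 445 and 419 CPM in the 3 controls and 518, 540.4 and 453 CPM with shPNISR (0.24 ± 0.11 SE, edgeR adjusted p = 0.274). TNFRSF1A, the main TNF receptor, measured 83.1, 87.6 and 85.0 CPM in the 3 controls and 105, 103 and 89.6 CPM with shPNISR (0.22 ± 0.11 SE, edgeR adjusted p = 0.308, and 0.10 in the composition-adjusted fit). Neither passed, though their groups did not overlap. VDAC1 was at 0.24 in the composition-adjusted fit (edgeR adjusted p = 0.197).

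BNIP3 and BNIP3L, BH3-like mitophagy receptors known as hypoxia targets, had their highest values in shNC 2 and were chosen after their values were seen. BNIP3 measured 25.4, 60.1 and 30 CPM in the 3 controls and 42.3, 56.7 and 40.5 CPM with shPNISR, and BNIP3L measured 33.3, 74.4 and 40.2 CPM in the 3 controls and 54.2, 70.0 and 69.7 CPM with shPNISR. In both genes shNC 2 was the highest of all 6 libraries, and the other controls lay below every shPNISR library. Neither passed with all 6 (0.27 and 0.39, edgeR adjusted p = 0.748 and 0.564). Without shNC 2 the fitted values were 0.75 and 0.81 (edgeR adjusted p = 0.00348 and 0.000719). The genes were chosen after their high shNC 2 values were seen, so leaving that library out raises both by construction. Those p-values are therefore no test of a rise. In the fit without shNC 2, 4 of the 40 were called higher (BNIP3, BNIP3L, CASP4 and TRADD), beside 7.78% of all tested genes, and 1 lower (BIRC3), beside 4.52%.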

How the data were processed

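The authors deposited whole-number read counts per Ensembl gene for 6 libraries. HISAT2 2.0.4 and GRCh38 are named per the submitters' processing notes, while the sources used here do not give the read counter, the annotation release or strandedness. Of 60664 IDs, 60463 had a symbol. Genes were filtered with filterByExpr (minimum count 10, minimum total 15), scaled with TMM factors and tested with edgeR 4.0.16 (robust quasi-likelihood, two-sided, Benjamini-Hochberg over 16102 genes, threshold 0.05) in R 4.3.3. Standard errors came from the fold change and F statistic, and intervals (95%) from the fit's degrees of freedom. Log2 CPM used a prior count of 2. Exon lengths, GC content and positions came from GENCODE release 29 (GRCh38), which gave 99.3% of tested genes both values.

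The members, roles and lists were chosen with earlier results of these data known. Full statistics went to members with an adjusted or unadjusted p under 0.05, to members with groups that did not overlap and to the member of each role with the highest mean CPM, and of the other pathway genes to those that passed and up to 6 with the smallest p.

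Other scalings (size factors from DESeq2, upper quartile, library totals), other filters (none, or a mean CPM of 1), other tools (DESeq2 1.42.0 and voom in limma 3.58.1), dispersion without robust fitting and replicate numbers as a block were tried, as were a loess adjustment for GC content and length (span 0.4), and leaving out each library. That adjustment without shNC 2 was added after seeing the data. On data simulated for this comparison over 15855 genes, 82 of 100 genes simulated with a 2-fold change were found by edgeR, 38 of 100 with a 1.5-fold change, and 13 without a change. The simulation used the gene dispersions of these data and changed only genes above a minimum mean count. It held no library set apart as shNC 2 was, and no trend with GC content or exon length. Figures used matplotlib 3.10.9.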

Additional observations from a re-analysis of the deposited data

How the results depend on the processing

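Precision is limited by 3 libraries a group. Most 1.5-fold changes were missed in simulation, which held no library like shNC 2 and no trend with GC content or length. Low counts limit DIABLO most, with 21 to 37 reads per library, and whether that count is incomplete was not tested. Over the 17 alternatives the 30 members gave 510 fold changes, of which 482 had the same sign and the same side of the threshold, 4 newly passed and 24 changed sign without passing. The count of members called higher was 0 in the fits other than without shNC 2 (2, the highest when leaving out a library, where the lowest was 0) and the GC content and length correction without shNC 2 (1, with 1 lower). Under that correction BCL2 was at 0.05, BCL2L12 at -0.03, BAK1 at -0.09, BAX at -0.04, BIK at -0.00 and FADD at -0.16. With shNC 2 also left out they were at 0.03, -0.09, -0.13, -0.12, -0.03 and -0.25, with BCL2L1 at -0.06 and APAF1 at 0.02. BCL2L2 was at 0.01 with upper-quartile factors. Leaving out 1 library took BCL2L2 to between -0.03 and 0.01, BCL2L13 to between -0.02 and 0.12, PMAIP1 to between -0.01 and 0.24, BIRC2 to between -0.30 and 0.02, and FADD to between -0.05 and 0.12. The cause was not tested.

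Of all tested genes 371 were higher and 134 lower. Without the low-count filter these were 642 and 354, with library totals 71 were lower, with DESeq2 229 were lower, and with the correction and without shNC 2 they were 1277 and 1211. Leaving out 1 library gave 133 to 1284 higher and 30 to 746 lower, the most without shNC 2. Of the other apoptosis genes, 0 were higher with library totals, 0 to 4 when 1 library was left out and 4 with the correction and without shNC 2. Of these genes 2 were lower without the filter, 1 with DESeq2, 0 to 1 when 1 library was left out and 2 with the correction and without shNC 2.

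The median over the 30 members was -0.02 with upper-quartile factors, -0.09 with the correction and without shNC 2, and between -0.06 and -0.00 when 1 library was left out. The pro-apoptotic median was -0.09 with the correction, -0.12 when shNC 2 was also left out, and between -0.05 and 0.08 when 1 library was left out. The anti-apoptotic median was -0.01 with the correction and between -0.21 and -0.02 when 1 library was left out. PNISR passed in all 17 alternatives.

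With the replicate number as a block, 390 genes were higher and 118 lower, no member passed and 0 other apoptosis genes were higher, CASP4 being at an adjusted p of 0.0589. Deviations of same-numbered libraries correlated at 0.12, -0.08 and -0.15, and 1 of 3 shNC libraries correlated best with its own number, so the numbers were not treated as a pairing.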
